A study of Homo sapiens with 10 samples.

Results

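The comparison described here set HCT116 cells in which wild-type CDK9 was put back after CDK9 knockdown (WT) against knockdown cells labelled EV. It took 4 of the 10 mRNA libraries of the series, EV 1, EV 2, WT 1 and WT 2, which were chosen by their labels, and all genes of the deposited table that holds them. HCT116 is an established human colorectal carcinoma line grown as an epithelial culture. All 4 libraries carry the same CDK9 knockdown, made with a short hairpin RNA according to the sample names, and received no drug. The labels do not expand EV, so it is kept as a name. They do not say whether the re-expressed CDK9 comes from a clone or a pool, which promoter drives it, or whether the 2 libraries of a group come from separate cultures, so p-values measure only the spread between these libraries, which may be technical. Another knockdown group, K56A, received CDK9 with lysine 56 changed to alanine and is set beside WT in places. Both CDK9 and DOT1L stand in the title of the series, which is on double-strand break repair.

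CDK9 is the kinase of P-TEFb, the complex that releases RNA polymerase II from its pause near the promoter by phosphorylating the polymerase and the factors that hold it. Cyclin T1 or T2 is its partner, and the 7SK small nuclear RNA with HEXIM proteins holds a large part of P-TEFb inactive in cells. DOT1L methylates lysine 79 of histone H3 in transcribed genes and shares the AF9 and ENL proteins with the elongation machinery to which P-TEFb belongs.

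The codon at which WT differs from the K56A construct is shown because it is the designed difference between the re-expressed proteins. It lies in exon 2 of CDK9, on the plus strand at chr9:127786774-127786776 of GRCh38, and is drawn here from the reference with 24 coding bases on each side, so that the stretch of 51 bases runs on into the next exon. Capitals mark the lysine codon.
CDK9 codon 56: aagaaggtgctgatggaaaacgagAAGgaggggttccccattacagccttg

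The table lists 72555 transcripts of 17280 genes in FPKM (fragments per kilobase of transcript, made comparable between libraries by their totals), and transcript values were summed per gene. The depth is unknown because the table holds no counts. The libraries had between 68188 and 68816 transcripts above 0, and mitochondrially encoded genes took between 27.1% and 27.9% of the summed FPKM in all of them. Across genes, log2 levels correlated at a Pearson r of 0.992 between the EV libraries, 0.993 between the WT libraries and 0.991 between libraries of different groups, so the groups differed little beyond replicate spread as a whole. Epithelial markers marked the line in every library: 10 of the 11 markers looked for were listed, and their summed FPKM was 1952 and 2004 in EV and 1832 and 1845 in WT. CDX2, an intestinal transcription factor, was low (2.26 and 2.68 in EV, 2.28 and 2.62 in WT), and CEACAM1 was below the limit for testing. Markers of immune, endothelial, neural and liver cells summed to at most 1.02 FPKM for each cell type in any library. Only 1 of 6 immune, 3 of 4 endothelial, 0 of 3 neural and 1 of 2 liver markers were listed at all. Of the fibroblast markers only COL1A1 reached the limit, at 29.9 and 27.4 in EV and 34.1 and 33.1 in WT.

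Genes with at least 1 FPKM in at least 2 of the 4 libraries were tested, 13729 in all, on the log2(FPKM + 0.5) scale with limma, and a gene passed at a Benjamini-Hochberg adjusted p under 0.05. This scale understates changes of genes with low levels. The 2 K56A libraries entered only to help estimate the spread. A total of 42 genes passed (0.306% of those tested). Of these, 7 rose in WT (0.051%) and 35 fell (0.255%). The median log2 difference over all genes was 0.015, and 54.8% of genes lay above 0. Only CDK9 both passed and differed by more than 1 on the log2 scale. At an unadjusted p under 0.05 there were 1804 genes, 892 higher (6.5%) and 912 lower (6.64%). The WT and EV values did not overlap for any of the 42, which follows largely from choosing them on these same values and gives no further support. Over all genes tested, both WT values were higher for 23.7% and both were lower for 19.3%. The number of calls rested on how the spread was estimated: 10 genes passed with the EV and WT libraries alone and 1, CDK9, without the intensity trend. With a library left out, 7 passed without EV 1, 2 without EV 2, 2 without WT 1 and 3 without WT 2. In bulk RNA, fewer cells of a type and less RNA per cell cannot be told apart for any gene below.

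**Figure D1:**
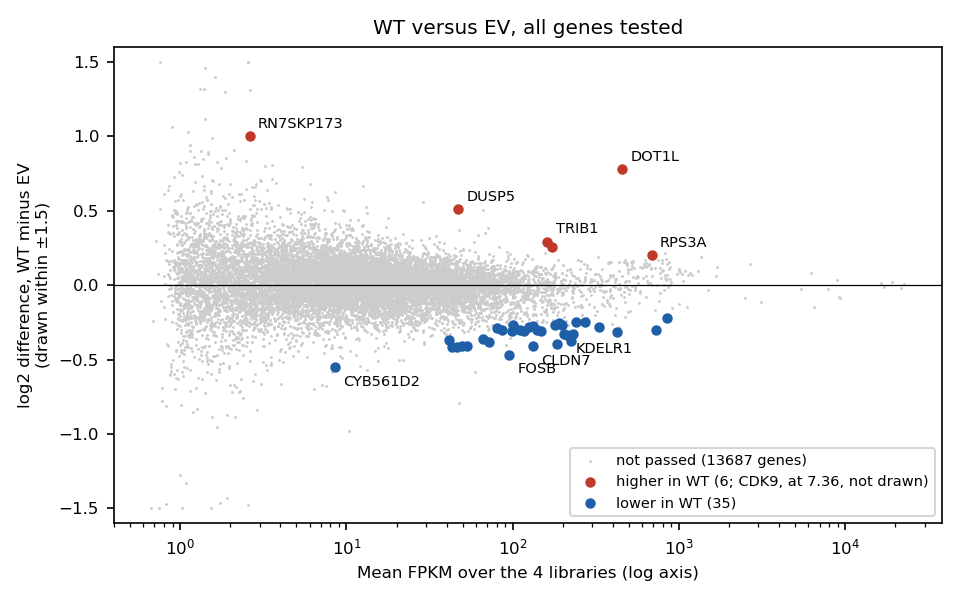
Log2 difference between WT and EV (y axis, log2(FPKM + 0.5) scale) against mean FPKM over the 4 libraries (x axis, log scale) for all genes tested. Red points are genes that rose and blue points genes that fell; CDK9, at 7.36, lies outside the drawn range, and nearly all genes that passed have high mean levels and differences within ±0.6.

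CDK9 itself checks the labels. Its summed level was 16.4 and 19.4 FPKM in EV and 3060 and 2976 FPKM in WT. The groups were far apart, with a log2 difference of 7.36 ± 0.07 (SE; limma adjusted p = 5.2e-10), and the gene passed in 16 of 16 alternative analyses. In WT, CDK9 made up 0.539% and 0.529% of all summed FPKM, against 0.0029% and 0.0034% in EV. In the separately normalised inhibitor table, HCT116 cells given only the vehicle DMSO held 43.9 and 37.6 FPKM, and in the K56A libraries CDK9 stood at 2609 and 2499 FPKM. WT thus carried CDK9 RNA far above the DMSO level as well as above EV. No test was made across tables.

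The reads of the re-expressed gene were spread over 4 CDK9 transcripts. The full coding transcript CDK9-201, which has 7 exons and 2463 bases, stood at 11.6 and 11 FPKM in EV against 751 and 811 in WT, yet its share of the gene fell from 70.7% and 56.3% to 24.5% and 27.2%. The other 3 transcripts are listed as processed, without a reading frame, and hold mostly coding-exon sequence. CDK9-203, with 85.6% of its 706 bases in coding exons of CDK9-201, went from 2.32 and 4.29 to 1152 and 1134 FPKM. CDK9-204, with 96.5% of 510 bases in coding exons, was at 0 and 0.631 in EV and at 660 and 601 in WT. CDK9-205, with 73.4% of 458 bases in coding exons, went from 2.47 and 3.57 to 497 and 430. Coding exons make up 45.3% of CDK9-201, whose remainder is untranslated sequence. With coding transcripts alone, the log2 difference of CDK9 was 6.05. Whether the construct holds untranslated sequence is not stated in the labels, and its part in the transcript shares was not tested.

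**Figure D2:**
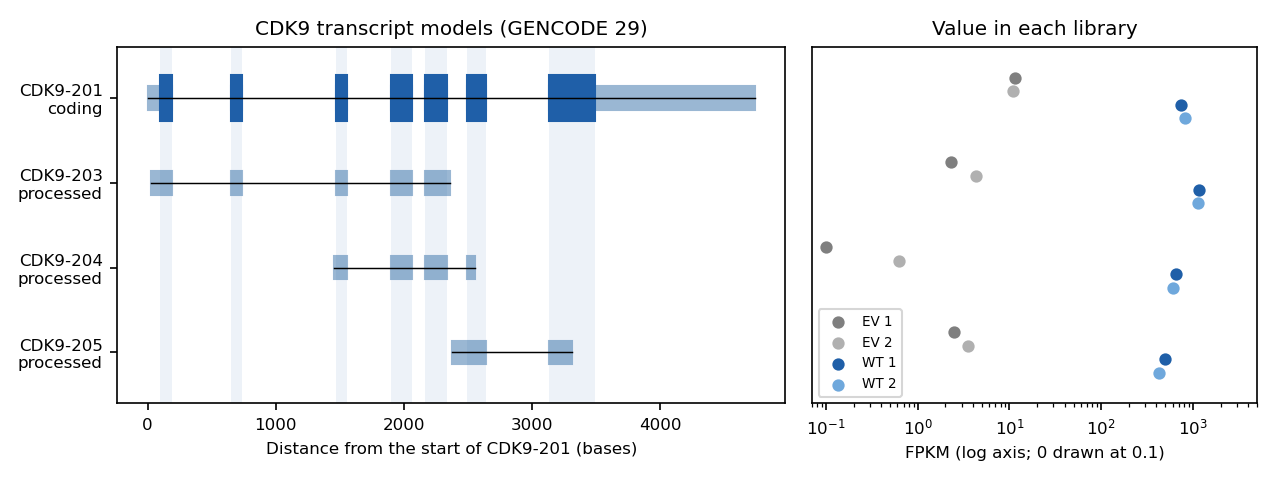
Left, the 4 CDK9 transcript models drawn to scale as distance from the start of CDK9-201 in bases, with coding exons in dark blue and shaded down the panel. Right, FPKM of each transcript in each library on a log axis; the 3 shorter transcripts, which lie mostly over coding exons, sit between 430 and 1152 FPKM in WT and at most at 4.29 in EV.

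Of the 33 measured genes of the P-TEFb and 7SK list, CDK9 alone passed. With CDK9 included, 19 members lay above 0 and 14 below, and the list's median difference was 0.019, near the 0.015 of all genes. CCNT1, which encodes cyclin T1, was at 21.3 and 17.6 FPKM in EV and 20.4 and 19.9 in WT. CCNT2 was at 16.7 and 16.8 against 15.4 and 17.4. The groups overlap for both cyclins, and no difference in the level of either was measurable at this spread. HEXIM1, which inhibits P-TEFb together with 7SK and whose own RNA is a known readout of P-TEFb activity, was at 23.5 and 22.2 in EV and 24.5 and 23.8 in WT (log2 difference 0.08 ± 0.06; limma adjusted p = 0.64). LARP7 and MEPCE, the proteins that stabilise and cap 7SK, differed by 0.02 ± 0.06 and -0.10 ± 0.08. RN7SK, the 7SK RNA itself, was low in these libraries (5.72 and 4.74 in EV, 3.35 and 4.50 in WT) and did not pass. The pause factors NELFA, NELFB, NELFCD and NELFE and the DSIF subunits SUPT4H1 and SUPT5H differed by between -0.07 and 0.05. AFF4, the scaffold of the super elongation complex, differed by 0.00 ± 0.07.

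RN7SKP173, an annotated pseudogene of 7SK, rose from 1.61 and 1.53 FPKM to 4.04 and 3.27 (log2 difference 1.00 ± 0.14; limma adjusted p = 0.038). Its groups did not overlap, but its level is low, and reads of near-identical copies may be split between RN7SKP173 and its source, so the assignment is uncertain. It passed in 6 of the 14 alternatives in which it was tested.

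After CDK9, DOT1L had the smallest p-value of all genes tested. Its level was 324 and 343 FPKM in EV and 578 and 568 FPKM in WT, a log2 difference of 0.78 ± 0.04 (limma adjusted p = 0.00015). The groups did not overlap, and the call held in 15 of 16 alternatives, the exception being the fit without the intensity trend. The coding transcript DOT1L-201 went from 254 and 259 to 416 and 412 FPKM and DOT1L-203 from 64.6 and 78.1 to 152 and 151, while the other 4 transcripts stayed at or below 6.12. In the K56A libraries DOT1L stood at 733 and 702 FPKM, above both WT values. DMSO cells, in a table normalised separately, held 12.6 and 12.5 FPKM, so that DOT1L was high in EV already and higher again with either form of CDK9. The labels name no DOT1L construct for these cells. The part of the DOT1L level in the other differences between WT and EV was not tested, since DOT1L and CDK9 moved together and cannot be told apart. Among the 14 measured genes of the DOT1L list no other passed. MLLT3, which encodes AF9, was at 2.07 and 1.93 in EV and 2.39 and 2.44 in WT (log2 difference 0.22 ± 0.16), and MLLT1, which encodes ENL, was at 16 and 17.4 against 16.3 and 16.1.

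The other genes that rose include 3 of the 23 measured members of a list of ERK pathway feedback regulators, against 0.051% of all genes. Many members of the list are induced by growth factor signalling and dampen it. The list also holds the cytokine gene LIF and the transcription factor genes ETV4 and ETV5, so it is not a list of inhibitors alone. DUSP5, a nuclear phosphatase that dephosphorylates ERK (chr10:110497907-110511533 of GRCh38), went from 38.8 and 38.5 FPKM to 55.6 and 55.0. Both WT values lay well above both EV values, with a log2 difference of 0.51 ± 0.04 (limma adjusted p = 0.011; passed in 12 of 16 alternatives). TRIB1, a pseudokinase scaffold, was at 147 and 143 in EV and 178 in both WT libraries (0.29 ± 0.04; limma adjusted p = 0.028; 10 of 16). ERRFI1, an inhibitor of the EGF receptor kinase, was at 156 and 159 in EV and 189 and 187 in WT (0.26 ± 0.03; limma adjusted p = 0.034; 9 of 16). In the K56A libraries DUSP5 stood at 49.7 and 50.1, TRIB1 at 185 and 180 and ERRFI1 at 175 and 179, in a comparison that shares the EV libraries.

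Of the whole ERK feedback list, 20 of 23 members lay above 0, with a median of 0.087, and both WT values lay above both EV values for 47.8%, against 23.7% of all genes. The members outside the 3 that passed differed little: DUSP6, the cytoplasmic ERK phosphatase, was at 112 in both EV libraries and at 115 and 117 in WT, DUSP4 at 30.5 and 31.0 against 34.1 and 33.2, and SPRY4 at 37.6 and 39.5 against 42.1 and 40.4. DUSP1, a nuclear phosphatase that acts mainly on p38 and JNK, went the other way without passing. It was at 18.1 and 18.6 in EV and 12 and 13.5 in WT, which do not overlap (log2 difference -0.51 ± 0.08; limma adjusted p = 0.056).

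The AP-1 transcription factors are dimers of FOS and JUN proteins made within minutes of a growth stimulus. Of 13 measured members 1 fell, against 0.255% of all genes. FOSB (chr19:45467995-45475179 of GRCh38) was at 111.6 and 108.8 FPKM in EV and 78.2 and 81.0 in WT, with no overlap and a log2 difference of -0.47 ± 0.04 (limma adjusted p = 0.013; 11 of 16 alternatives). In the K56A libraries it stood lower still, at 62.0 and 60.2. FOS, its paralog, was at 432 and 433 in EV and 363 and 360 in WT. Those groups do not overlap either, but with a log2 difference of -0.26 ± 0.04 and a limma adjusted p of 0.0503 FOS did not pass. JUN was at 57.4 and 59.8 against 53.3 and 54.0 and did not pass, whereas JUNB (88.7 and 89.6 against 93.0 and 92.6) and FOSL1 (44.2 and 42.3 against 45.5 and 42.8) were above 0. The median of the list was 0.007, with 7 members above 0 and 6 below. Both WT values lay below both EV values for 38.5% of members against 19.3% of all genes, and above them for 23.1% against 23.7%. At an unadjusted p under 0.05, 4 members were lower (against 6.64% of all genes) and 0 higher.

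The starts of FOSB and FOS are shown because they are the AP-1 genes with the clearest differences. Each line gives the 120 bases up to the transcription start from RefSeq (GRCh38.p14, plus strand, chr19:45467876-45467995 for FOSB and chr14:75278708-75278827 for FOS), with capitals on the letters TGACGT, the core of a cyclic AMP response element, and TATAAA, a site bound by general transcription factors.
FOSB: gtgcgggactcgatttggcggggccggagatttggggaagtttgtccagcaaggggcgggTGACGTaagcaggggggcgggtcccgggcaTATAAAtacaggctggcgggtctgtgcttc
FOS: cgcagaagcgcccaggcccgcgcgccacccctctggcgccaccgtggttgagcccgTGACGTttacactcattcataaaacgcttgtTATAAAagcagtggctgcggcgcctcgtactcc
Both motifs stand in both promoters. Searched on both strands over the 250 bases before the start, TGACGT was found in 7.1% and TATAAA in 10.72% of 35116 promoters, and the AP-1 site TGANTCA in 6.57%, with no match in FOSB or FOS. The motifs do not overlap each other here, and a match in letters is only a description of the sequence.

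The 35 genes that fell did so by small, even steps. Their log2 differences ran from -0.55 to -0.22 with a median of -0.31, which corresponds to WT levels of 0.666 to 0.857 of EV, and their adjusted p-values ran from 0.013 to 0.047. Each passed in between 5 and 12 of 16 alternatives. All 35 are protein-coding. CYB561D2, a cytochrome b561 family reductase, fell most, from 10.3 in both EV libraries to 6.72 and 6.97 FPKM (log2 difference -0.55 ± 0.08; limma adjusted p = 0.036). In the separate K56A table all 35 were also below EV, with log2 differences from -0.85 to -0.03, but that comparison uses the same EV libraries and gives no independent support.

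**Figure D3:**
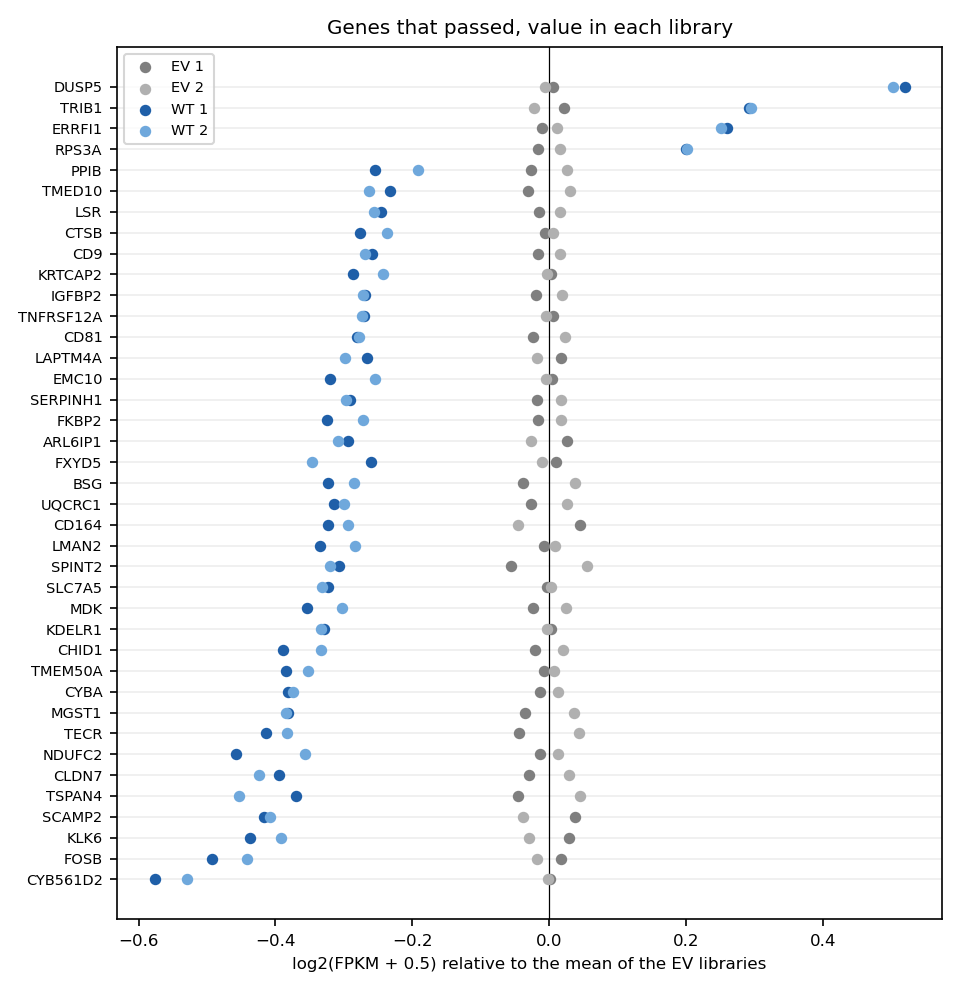
Log2(FPKM + 0.5) of each library relative to the mean of the EV libraries (x axis) for the genes that passed (y axis), without CDK9, DOT1L and RN7SKP173, which lie outside the range or are low. Grey points are the EV and blue points the WT libraries; the groups are apart for every gene, by 0.20 to 0.51 for those that rose and by 0.22 to 0.55 for those that fell.

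Members of a list of trafficking between the endoplasmic reticulum (ER) and the Golgi were among them. Of 45 measured genes of that list 4 fell and none rose, against 0.255% and 0.051% of all genes. Of the 45, 32 lay below 0, and the median was -0.064. Both WT values lay below both EV values for 48.9% of members, against 19.3% of all genes. KDELR1, the receptor that returns escaped ER proteins by their KDEL tail, was at 238 and 237 FPKM in EV and 189 and 188 in WT (-0.33 ± 0.03; limma adjusted p = 0.014). LMAN2, a lectin that carries glycoproteins, was at 162 and 164 against 129 and 134. SCAMP2, in the list although it is a membrane protein of recycling vesicles, was at 50.3 and 47.8 against 36.6 and 36.8. TMED10, a cargo receptor of the p24 family, was at 289 and 301 against 251 and 246. For each of these genes the replicates lay closer together than the groups did. TMED9 and SCAMP3 did not overlap either but did not pass (limma adjusted p = 0.065 and 0.070).

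ER chaperones and genes of the unfolded protein response lay mostly below 0 with no call. Among 38 measured members 30 lay below 0, the median was -0.118, and both WT values lay below both EV values for 71.1% (19.3% of all genes). SPCS2, a subunit of signal peptidase, was at 141 and 142 in EV and 111 and 119 in WT (-0.30 ± 0.05; limma adjusted p = 0.081), and P4HB, protein disulfide isomerase, at 743 and 782 against 672 and 686 (-0.17 ± 0.03; limma adjusted p = 0.085). With trends on GC content and length removed, the list medians were -0.071 for trafficking and -0.119 for chaperones.

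At the cell surface, 3 of 16 measured tetraspanins fell, against 0.255% of all genes. These 4-pass membrane proteins organise receptors and integrins into microdomains and are abundant on exosomes. CD81 was at 357 and 368 FPKM in EV and 298 and 299 in WT (-0.28 ± 0.03; limma adjusted p = 0.025), CD9 at 214 and 219 against 181 and 180 (-0.26 ± 0.03; limma adjusted p = 0.028), and TSPAN4, a protein of migrasomes, at 54.9 and 58.4 against 43.7 and 41.2 (-0.41 ± 0.06; limma adjusted p = 0.036). Of the list, 15 members lay below 0, with a median of -0.125 and 62.5% not overlapping on the lower side, against 19.3% of all genes. CD151 and TSPAN14 differed by -0.21 and -0.26 without passing (limma adjusted p = 0.065 and 0.077).

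A list of epithelial junction and keratin genes gave 2 falls among 37, against 0.255% of all genes. CLDN7, a claudin of tight junctions and one of the markers used to check the line, was at 148 and 154 in EV and 115 and 113 in WT (-0.41 ± 0.04; limma adjusted p = 0.013; 12 of 16 alternatives). SPINT2 is in the list although it is no junction or keratin gene but an inhibitor of the serine proteases that process epithelial surface proteins. It was at 453 and 489 against 380 and 377 (-0.31 ± 0.05, limma adjusted p = 0.047). Both groups of values were apart. The list as a whole stood at a median of 0.002, with 19 members above 0 and 18 below, and 32.4% not overlapping on the lower side, against 19.3% of all genes. EPCAM (385 and 362 against 338 and 340), CLDN3 (8.95 and 9.57 against 6.97 and 6.62) and CLDN4 (110 and 112 against 101 and 99.2) did not overlap and did not pass, while KRT18 and CDH1 differed by 0.01 ± 0.04 and 0.02 ± 0.05.

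Kallikreins and other secreted proteases with their inhibitors had the lowest list median, -0.205 over 15 measured members, 14 of them below 0 and 80.0% not overlapping on the lower side, against 19.3% of all genes. KLK6, a secreted trypsin-like protease, was the only fall, against 0.255% of all genes. It was at 53.8 and 51.6 in EV and 38.8 and 40.04 in WT (-0.41 ± 0.06, limma adjusted p = 0.034). KLK10 was at 10.3 and 11 against 7.70 and 7.34 (limma adjusted p = 0.058), TIMP2, an inhibitor of metalloproteases, at 60.9 and 61.6 against 50.8 and 49.1 (limma adjusted p = 0.0503), and TIMP1 at 205 and 226 against 186 and 179. KLK8 was the member above 0, at 17.9 and 19.4 against 21.3 and 23.4.

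Antigen presentation by MHC class I, which passes through the same ER route, had no call among 14 genes. HLA-C was at 297 and 308 in EV and 256 and 263 in WT (-0.22 ± 0.03; limma adjusted p = 0.055), though the near-identical HLA genes share reads. TAPBP, the tapasin that loads peptides, was at 60.6 and 60.3 against 50.6 and 48.3, and B2M, the common light chain, at 520 and 535 against 449 and 481. The median of the list was -0.136, and 12 members were below 0. With trends on GC content and length removed the median was -0.101, the weak end of its range over the alternatives (-0.185 to -0.101).

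In metabolism, TECR was the only fall among 40 genes of cholesterol and fatty acid synthesis, against 0.255% of all genes. The enzyme carries out the last reduction of very long chain fatty acid elongation, and its level was 203 and 216 FPKM in EV and 157 and 161 in WT (-0.40 ± 0.05; limma adjusted p = 0.026). Of that list 29 members were below 0, with a median of -0.069 and 55.0% not overlapping on the lower side, against 19.3% of all genes. SCD, the stearoyl-CoA desaturase, was at 188 and 184 against 164 in both WT libraries (limma adjusted p = 0.082). SLC7A5, the large neutral amino acid transporter and a known target of ATF4, was at 225 and 226 in EV and 180 and 179 in WT (-0.33 ± 0.04, limma adjusted p = 0.025). It was the only fall among 31 measured genes of ATF4 targets and amino acid supply, against 0.255% of all genes. The median of that list was -0.026, with 32.3% not overlapping on the lower side, against 19.3% of all genes. Of 75 nuclear-encoded subunits of oxidative phosphorylation 2 fell, against 0.255% of all genes. They were UQCRC1 of complex III (108 and 112 against 88.1 and 89.0) and NDUFC2 of complex I (59.8 and 60.9 against 43.8 and 47.0). The other subunits were spread evenly, with a median of 0.009 for the list. Of 38 glycolytic and hypoxia genes none passed. SLC2A1, the glucose transporter GLUT1, came closest at 233 and 236 against 193 and 197 (limma adjusted p = 0.062), and 27 of the list were below 0 with a median of -0.059.

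The remaining large falls belong to none of the lists. MGST1, a membrane-bound glutathione transferase, was at 79.8 and 83.9 FPKM in EV and 62.7 and 62.5 in WT (-0.38 ± 0.04). CYBA, the p22phox subunit of NADPH oxidase, was at 249 and 254 against 193 and 194 (-0.38 ± 0.05). MDK, the secreted growth factor midkine, was at 252 and 260 against 199.97 and 207 (-0.33 ± 0.04). TMEM50A was at 46.5 and 47.0 against 35.7 and 36.5, and CHID1, a chitinase-domain protein that lies beside TSPAN4 on chromosome 11, at 73.6 and 75.8 against 56.9 and 59.2. All 5 passed in limma with adjusted p between 0.025 and 0.034, and in none did the groups overlap.

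Ribosomal protein genes lay mostly above 0, by small differences. Of 82 measured cytosolic ribosomal proteins 78 lay above 0, the median was 0.111, and for 63 (76.8%) both WT values were above both EV values, against 23.7% of all genes. RPS3A, a protein of the small subunit, was the only rise that passed among the 82, against 0.051% of all genes. RPS3A was at 631 and 645 FPKM in EV and 733 in both WT libraries (0.20 ± 0.03, limma adjusted p = 0.035, 9 of 16 alternatives). It has many processed pseudogenes, so reads shared with copies make its level uncertain, and in K56A it stood at 652 and 659, close to EV. RPL7 was at 814 and 821 against 913 and 910 (limma adjusted p = 0.062) and RPS18 at 1236 and 1289 against 1409 and 1472 (limma adjusted p = 0.077). RPS15, RPL28, RPL18 and RPLP1 were the members below 0. Translation factors and snoRNA host genes gave no call among 32, with 25 above 0 and a median of 0.042. TPT1 was at 791 and 742 against 872 and 904 and EEF1A1, which delivers aminoacyl-tRNA, at 2492 and 2578 against 2760 and 2839. The list medians kept their sign in 16 of 16 alternatives, between 0.079 and 0.139 for ribosomal proteins.

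**Figure D4:**
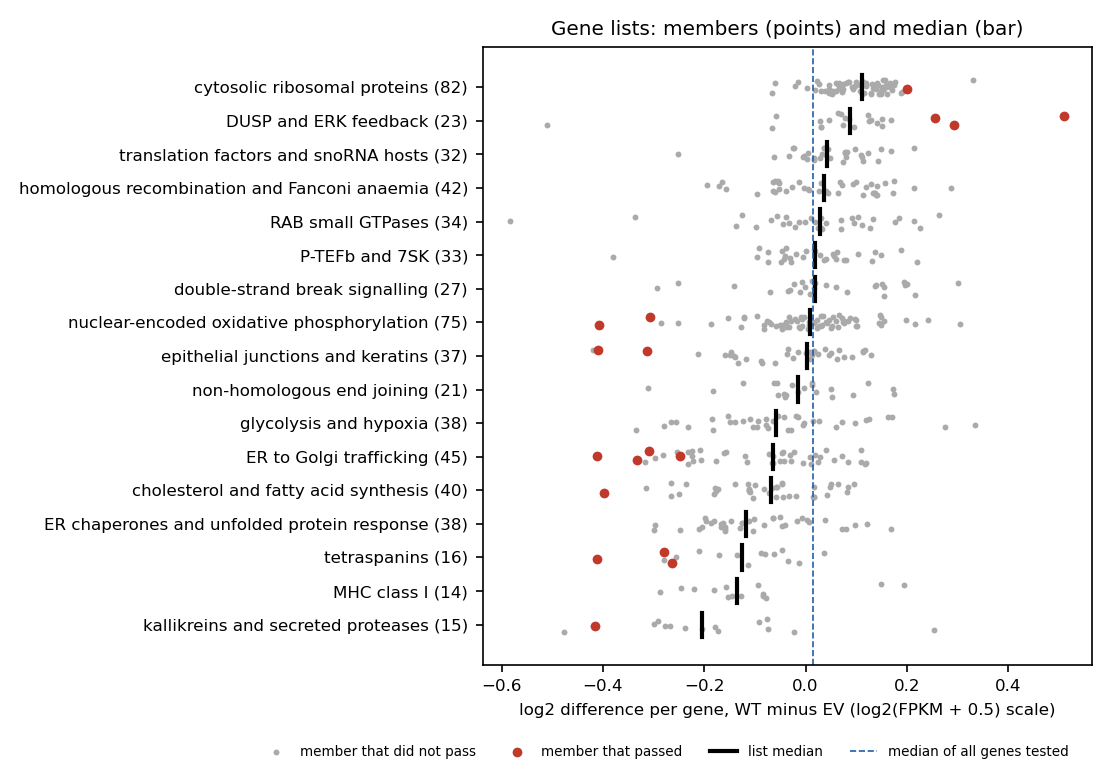
Log2 difference between WT and EV (x axis) of every tested member of 17 gene lists (y axis, number tested in parentheses); grey points did not pass, red points passed, black bars are list medians and the dashed line is the median of all genes. CDK9 is left out of the P-TEFb list; ribosomal proteins lie mostly to the right, and kallikreins, MHC class I, tetraspanins and ER chaperones to the left.

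DNA repair genes, named in the title of the series, gave no call. Among 42 genes of homologous recombination and the Fanconi pathway the median was 0.036. BRCA1, which promotes end resection, was at 14.4 and 14.5 in EV and 17 and 16.7 in WT (0.21 ± 0.06; limma adjusted p = 0.20), and PALB2 at 5.13 and 3.93 against 5.75 and 5.45. Among 21 genes of non-homologous end joining the median was -0.015, and POLL, a gap-filling polymerase, was at 22.9 and 23.1 against 17.6 and 19.4 (-0.31 ± 0.07; limma adjusted p = 0.11). Among 27 genes of double-strand break signalling the median was 0.018, with CHEK2, a checkpoint kinase, at 21.7 and 24.4 against 18.1 and 19.3 and CLSPN, the adaptor of CHK1, at 12.8 and 12 against 14.1 and 14.5. No p53 target passed among 25 (median 0.066). CCNG1 had the smallest p, at 28.6 and 32.0 against 38.1 and 35.3 (0.27 ± 0.07; limma adjusted p = 0.18). No gene passed either among 50 of DNA replication or 44 of mitosis, with medians of -0.011 and 0.014.

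Sequence composition moved with these differences. The genes that fell had a median GC content of 58.5% and a median transcript length of 1324 bases, against 49.6% and 2254 for all genes tested and 51.8% and 1799 for those with a mean of at least 40 FPKM. Among genes of at least 20 FPKM divided into 5 equal classes by GC content, the median log2 difference went from 0.033 in the class of lowest GC through 0.023, 0.006 and -0.023 to -0.048 in that of highest GC. Of the 35 genes, 9 lie on chromosome 19 (25.7%, against 7.1% of all genes tested) and 7 on chromosome 11 (against 5.6% of all genes tested). With trends on GC content and length removed from each library, an alternative chosen after seeing the data, 56 genes passed, 7 higher and 49 lower, and 37 of the 42 were among them. FOSB was then at -0.43, CLDN7 at -0.38, KDELR1 at -0.31 and RPS3A at 0.16, and the median of the ribosomal proteins at 0.095.

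The authors' deposited table also holds their own test per transcript. In it 2419 of 72555 transcripts had an adjusted p under 0.05 (3.33%), 1135 higher and 1284 lower in WT. Of these, 1212 (50.1%) were listed at 0 in both libraries of a group. The other 1207 fell into 1040 genes, and 902 of them were coding, 124 retained introns and 112 targets of nonsense-mediated decay. Of the 42 genes that passed at gene level, 33 held at least 1 transcript called in the authors' deposited table. The share over all genes tested was not worked out, so the count cannot be read as agreement between the tests. The 35 genes that fell also had a high median level, 132.1 FPKM, against 10.7 for all genes tested. Both tests rest on the same libraries, so the overlap gives no independent support.

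Some of those transcripts changed without a like change of the gene. Beside CDK9 and DOT1L, 23 transcripts of 21 genes had an adjusted p under 0.05 and a log2 fold change of at least 1 in size in the authors' deposited table, values above 0 in all 4 libraries and a group mean of at least 10 FPKM. This choice was made after values were seen. The gene-level log2 differences of those genes had a median size of 0.068, and 1 of the genes, the cathepsin gene CTSB, passed. GADD45A-205, a transcript of a stress-induced growth arrest gene, went from 1.74 and 1.42 FPKM to 12.6 and 13.7, and from 4.3% and 3.4% of its gene to 25.2% and 24.2%. The GADD45A sum went from 40.3 and 41.9 to 49.9 and 56.8 (0.37 ± 0.07; limma adjusted p = 0.091). RPL15-215, of a large-subunit ribosomal protein gene, went from 64.9 and 60.4 to 19.9 and 26.7, while the RPL15 sum was 520.0 and 558 in EV and 562 and 551 in WT. EIF3E-209, of a translation initiation factor gene, went from 7.57 and 6.19 to 23.4 and 26.2, at gene sums of 229 and 233 against 259 and 261. CTSB-204 went from 25.1 and 22.2 to 8.75 and 7.13, within a gene that fell from 205 and 206 to 170 and 174. In each the WT and EV values were far apart. The K56A libraries held GADD45A-205 at 12.1 and 13.9, RPL15-215 at 33.7 and 34.8, EIF3E-209 at 21.3 and 21.1 and CTSB-204 at 16.4 and 18.1. Estimates for transcripts that share most of their sequence can trade reads within a gene, and the part of this in the shifts was not tested.

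**Figure D5:**
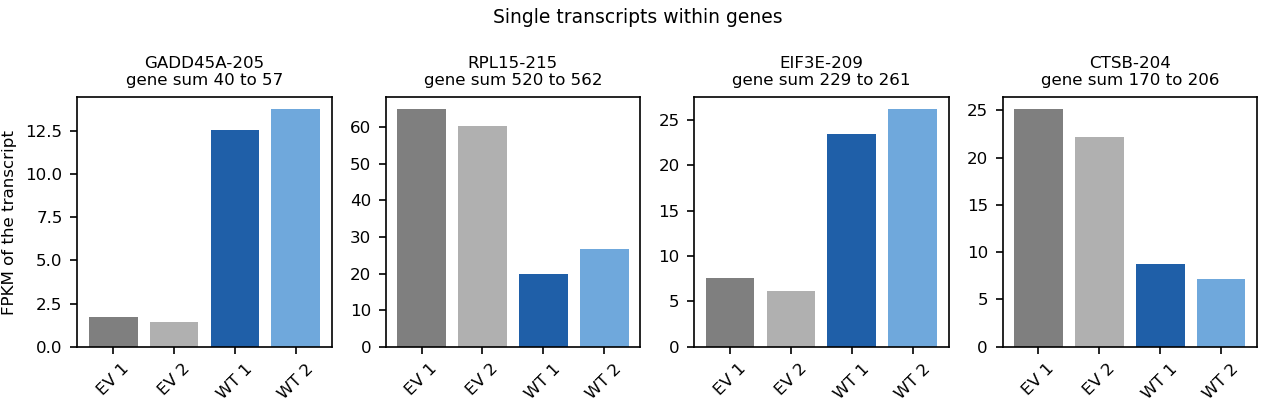
FPKM of 4 single transcripts (y axis, from 0) in each of the EV and WT libraries (x axis), with the range of the gene's summed FPKM above each panel. GADD45A-205 and EIF3E-209 were higher in both WT libraries and RPL15-215 and CTSB-204 lower, while the RPL15 sum moved between 520.0 and 562.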

How the data were processed

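The authors deposited FPKM per transcript (columns of the table with EV and WT), together with their own log2 fold changes and adjusted p-values, which come from DESeq2 per the file headers. DESeq2 is version 1.32.0 per the submitters' processing notes, which also list RSEM 1.3.3, build GRCh38, STAR in version 2.7.1a and the trimmer Trim Galore in version 0.6.6, with no roles stated. Strand setting and annotation release: not given in the sources used here. The EV libraries recur in the K56A table, scaled by 1.0007 and 1.00062, and those 2 columns and 4 columns of group summaries were not used. The depth is unknown, so no counting interval can be given.

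FPKM was summed per gene ID over all transcripts of the table, and log2(FPKM + 0.5) was fitted with limma 3.58.1 in R 4.3.3 (intensity trend, group means, two-sided, Benjamini-Hochberg), with the spread shared with the K56A libraries, summed in their own table. The script was tested on simulated data. Replicate numbers did not pair libraries: deviations of same-numbered libraries correlated at 0.025, -0.016 and -0.037. GC content, lengths and transcript models came from GENCODE 29, which matched 67332 of 72555 transcripts, and promoters from RefSeq. Plots were drawn with matplotlib 3.10.9 and tables made with numpy 2.4.6 and pandas 2.3.3 under Python 3.11.15.

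The members, the 45 gene lists and the tests were chosen with earlier results of these data known. Named are CDK9 and DOT1L, then the 15 largest rises and falls among genes that passed without overlap and with a mean of at least 2 FPKM, each list's members that passed, and otherwise up to 4 with the smallest p. All members of the P-TEFb, AP-1 and ERK feedback lists could be named. Genes named outside this rule are COL1A1, CDX2, CEACAM1, KRT18 and CDH1, the transcript examples with their genes, and members that did not pass of lists in which another member did, all chosen after their values were seen. The alternatives were 15 planned and 1 added, 16 in all. Values were not compared by test between tables, and no test of a list was made. Some items are not reported here.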

Additional observations from a re-analysis of the deposited data

How the results depend on the processing

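With 2 libraries a group and no counts, the number of genes that passed depended on the estimate of the spread, and single calls other than CDK9 and DOT1L are near the threshold. Against 42 genes, 146 passed with FPKM of at least 5 (27 higher, 119 lower), 69 with median ratio scaling (8 and 61), 81 with scaling to the nuclear sum (17 and 64), 10 with the EV and WT libraries alone (3 and 7) and 1 without the intensity trend. Leaving out a library gave between 2 and 7, where the lone library of a group is assumed to vary like the others. The replicate block, over numbers that did not pair libraries, gave 26 (7 and 19), of which 24 were among the 42. Of these 42, 41, 42 and 42 passed with the higher minimum and the 2 scalings. Counts stayed within 1.5 times of 42 with either other pseudocount (41 and 49), no filter (33), shared transcripts (45), coding transcripts (37) and GC and length trends removed (56). The median of all genes moved by less than 0.1 under either scaling. DOT1L kept its difference of 0.781 without the intensity trend with an adjusted p of 0.224, and its adjusted p was at most 0.0042 in the other alternatives. CDK9 passed in all 16. Of 638 values of the 40 other genes that passed, 281 lost the call and none changed sign; of 624 list medians, 533 moved by less than the spread between replicates and 91 by more. Between 18 and 22 of the 39 lists had a median below 0, against 19.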

Other observations

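The 14 falls outside the naming rule, chosen after their values were seen, belong to none of the lists. PPIB, an ER cyclophilin, was at 890 and 923 FPKM in EV and 760 and 793 in WT (-0.22 ± 0.03; limma adjusted p = 0.042). FKBP2, another ER prolyl isomerase, was at 94.2 and 96.4 against 76.0 and 78.8, and SERPINH1, the collagen chaperone HSP47, at 113 and 115 against 93.0 and 92.7. KRTCAP2, a subunit of the oligosaccharyltransferase, was at 110 in both EV libraries and 90.2 and 93.0 in WT, and EMC10, of the ER membrane complex, at 89.1 and 88.5 against 71.1 and 74.4. The surface proteins were BSG (basigin; 787 and 829 against 645 and 663), CD164 (133 and 125 against 103 and 105), LSR (259 and 265 against 221 and 219), TNFRSF12A (145 and 144 against 120 in both WT libraries) and FXYD5 (123 and 121 against 101 and 95.5). CTSB, LAPTM4A, ARL6IP1 and IGFBP2 complete the set. All were lower in both WT libraries than in both EV libraries, by 0.22 to 0.31 on the log2 scale.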
